A study of Saccharomyces cerevisiae with 5 samples.

Results

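Iron-sulfur clusters are made in mitochondria and then inserted into enzymes that need them. The 10 genes described here are 7 genes of the mitochondrial assembly pathway (*NFS1*, *ISU1*, *ISU2*, *YFH1*, *GRX5*, *ISA1* and *ISA2*) and 3 genes for enzymes that carry a cluster (*LEU1*, *LYS4* and *ILV3*). They were chosen by systematic name and by no rule on a measured value, although earlier results of these data were known. They are 10 of the 6697 annotated coding sequences (CDS) of *Saccharomyces cerevisiae* that were measured. All 10 passed the minimum of 20 reads in the higher library.

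Poly(A)+ RNA was sequenced from BY4741 cells given 1 mM CuSO4 for 4 hours and from BY4741 cells kept in YPD, the rich medium in which both cultures grew to mid-log phase. Chromatin immunoprecipitation for γH2A, the phosphorylated histone H2A that marks sites of stalled replication forks, was performed on the same conditions with a YPD input. BY4741 is a haploid laboratory strain of the a mating type that carries *leu2*Δ0, *ura3*Δ0, *met15*Δ0 and *his3*Δ1 in both conditions. Each condition has 1 RNA library, so differences have no replicate check, no p-value is given, and intervals cover counting error only.

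Assembly starts when the cysteine desulfurase Nfs1 removes sulfur from cysteine and passes it to a scaffold, Isu1 or Isu2, where it meets iron with help from the frataxin Yfh1. The glutaredoxin Grx5 takes part in moving the new 2Fe-2S cluster onwards, and Isa1 and Isa2 are needed to make the 4Fe-4S clusters of aconitase-like enzymes. Leu1, Lys4 and Ilv3 are dehydratases or isomerases of amino acid synthesis whose cluster binds the substrate. In *Escherichia coli*, copper ions are known to destroy the exposed clusters of this enzyme class. The clusters themselves were not measured here, and an mRNA level does not report the state of an enzyme.

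With CuSO4 the mRNA levels of these genes were close to those in YPD. A CDS was called as risen or fallen at a log2 change (CuSO4 minus YPD) of at least 0.322 in size. None of the 10 genes rose and none fell by that much, and their changes ran between -0.21 for *LYS4* and 0.20 for *ISA2* with a median of -0.06. Over all 6078 CDS with at least 20 reads, 7.80% rose and 4.43% fell, and the median was 0.01. Past 2-fold in either direction were 0 of the 10 genes and 1.18% of all CDS.

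The libraries held 5749810 reads on CDS with CuSO4 and 5572698 in YPD. The treatment showed in the metallothionein *CUP1-1*, with 4042 reads with CuSO4 and 496 in YPD (a log2 change of 2.98), and in the copper importer *CTR1*, with 173 and 1554 (-3.22). The paralogous copy *CUP1-2*, whose reads cannot be told apart from those of *CUP1-1*, had a change of 2.87, and actin (*ACT1*) one of 0.03. *LEU2*, *URA3* and *MET15* had 0 reads in both libraries, which allows up to 3 reads each, while *HIS3* had 309 reads with CuSO4 and 291 in YPD. The 5 a-mating-type markers lay at log2 levels between 9.36 and 12.8 with CuSO4 and between 9.27 and 12.7 in YPD, and 1 of them, the a-factor gene *MFA1*, rose (0.52). The 4 α-type markers lay between 0.85 and 6.73 with CuSO4 and between 0.90 and 7.04 in YPD, with *MF(ALPHA)1* at 0 reads in both. In bulk RNA, fewer cells that express a gene and less RNA per cell cannot be told apart.

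*YFH1* (YDL120W) encodes the yeast frataxin and lies on chromosome IV at 245923 to 246447, plus strand (R64). It had 402 reads with CuSO4 and 425 in YPD. Reads are given as counted throughout, while levels and changes hold the factor of 1.04 by which YPD was scaled to the larger library. Its level, in log2 scaled reads per kb of CDS, was 9.58 with CuSO4 and 9.71 in YPD, a change of -0.13 with a 95% counting interval (Clopper-Pearson) of -0.33 to 0.07. *NFS1* (YCL017C), the desulfurase, lies on chromosome III at 92777 to 94270, minus strand. It had 699 reads with CuSO4 and 716 in YPD, and levels of 8.87 and 8.95, a change of -0.08 (-0.24 to 0.07). Both intervals held 0. The CDS of *LEU2*, deleted in this strain and without reads, is annotated 358 bp from *NFS1*.

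The scaffold genes *ISU1* (YPL135W, chromosome XVI at 297553 to 298050, plus strand) and *ISU2* (YOR226C, chromosome XV at 761614 to 762084, minus strand) are paralogues that can stand in for each other. A blastn search of the R64 genome matched their CDS to each other at 71.9% identity over 384 bp. The longest run of identical bases is 12 bp long, and it is shown in capitals within 60 bp of each CDS (ISU1 bases 430 to 489, ISU2 bases 406 to 465) so that the density of differences between the copies can be seen.
ISU1: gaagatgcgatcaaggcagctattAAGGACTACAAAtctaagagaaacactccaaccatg
ISU2: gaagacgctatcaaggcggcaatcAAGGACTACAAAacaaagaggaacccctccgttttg
These windows lie at chrXVI:297982-298041 on the plus strand and at chrXV:761620-761679 on the minus strand. No longer identical run exists between the pair, and the other 8 genes matched no second place in the genome.

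*ISU1* had 538 reads with CuSO4 and 503 in YPD. Its level was 10.08 with CuSO4 and 10.03 in YPD, a change of 0.05 (-0.13 to 0.23). *ISU2* had 396 reads with CuSO4 and 402 in YPD, with levels of 9.72 and 9.79 and a change of -0.07 (-0.28 to 0.13). The signs were opposite, but each interval held 0. Per kb, *ISU1* stood above *ISU2* by a ratio of 1.28 (1.13 to 1.47) with CuSO4 and 1.18 (1.04 to 1.35) in YPD. *ISU1* thus had more reads per kb than *ISU2* in both libraries, although reads of the overlapping CDS described below may be included. The log2 difference between these ratios was 0.12 (-0.15 to 0.38). The 2 genes together had 934 reads with CuSO4 and 905 in YPD, a log2 change of -0.00425 (-0.14 to 0.13).

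Each scaffold gene overlaps a CDS on the opposite strand. YPL135C-A lies wholly inside *ISU1*, covers 34.9% of it and had 234 reads in each library, a change of -0.05 (-0.32 to 0.22). YOR225W shares 108 bp with *ISU2* (22.9% of that CDS) and had 263 reads with CuSO4 and 274 in YPD, a change of -0.11 (-0.36 to 0.14). Whether strand was used in counting is not given in the sources used here, so reads of a scaffold gene and of its partner cannot be told apart. The same reads may be counted under both, so the values of the overlapping CDS are not a separate measurement. Neither overlapping CDS is in the RefSeq annotation.

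*GRX5* (YPL059W), the monothiol glutaredoxin of cluster transfer, lies on chromosome XVI at 444579 to 445031, plus strand. It had 357 reads with CuSO4 and 355 in YPD, and levels of 9.62 and 9.66. Its change was -0.04 (-0.26 to 0.17), inside the counting error.

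*ISA1* (YLL027W, chromosome XII at 87403 to 88155, plus strand) and *ISA2* (YPR067W, chromosome XVI at 682220 to 682777, plus strand) act as a pair in the last step for 4Fe-4S clusters. *ISA1* had 288 reads with CuSO4 and 281 in YPD, with levels of 8.58 and 8.59 and a change of -0.01 (-0.26 to 0.23). *ISA2* had 213 reads with CuSO4 and 179 in YPD, with levels of 8.58 and 8.38 and a change of 0.20 (-0.09 to 0.50). *ISA2* has the fewest reads of the 10 genes and the widest interval, which holds 0. The ratio of *ISA1* to *ISA2* per kb was 1.00 (0.836 to 1.20) with CuSO4 and 1.16 (0.961 to 1.41) in YPD. The levels of the pair were not separable in either library, and the log2 difference of the ratios was -0.22 (-0.59 to 0.16).

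None of the 3 client genes rose or fell, and their changes ran between -0.21 and -0.05. *LYS4* (YDR234W) encodes homoaconitase, a mitochondrial enzyme of lysine synthesis, and lies on chromosome IV at 931129 to 933210, plus strand. It had 719 reads with CuSO4 and 806 in YPD, with levels of 8.43 and 8.65. Its change of -0.21 (-0.36 to -0.07), or 0.862-fold (0.778 to 0.954), was the lowest of the 10 genes, and 10.0% of all CDS had a lower one. *ILV3* (YJR016C) encodes dihydroxyacid dehydratase of valine and isoleucine synthesis, and lies on chromosome X at 464451 to 466208, minus strand. It had 2932 reads with CuSO4 and 3025 in YPD, with levels of 10.70 and 10.80 and a change of -0.09 (-0.17 to -0.02), or 0.936-fold (0.890 to 0.986). *LEU1* (YGL009C), the cytosolic isopropylmalate isomerase of leucine synthesis, lies on chromosome VII at 476313 to 478652, minus strand. It had 2715 reads with CuSO4 and 2724 in YPD, with levels of 10.18 and 10.23 and a change of -0.05 (-0.13 to 0.02).

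*LYS4* and *ILV3* were therefore 2 of the 10 genes whose counting interval lay below 0, beside 10.1% of all CDS. An interval above 0 was found for 0 of the 10 genes and for 11.6% of all CDS. These shares, here and for the lists below, are over CDS with at least 20 reads. Intervals narrow as reads grow, and no share of intervals was taken at like read number. Counting error leaves out the spread between cultures, which was not measured. Summed over the 3 client genes there were 6366 reads with CuSO4 and 6555 in YPD, a log2 change of -0.09 (-0.14 to -0.04). Summed over the 7 assembly genes there were 2893 reads with CuSO4 and 2861 in YPD, a change of -0.03 (-0.11 to 0.04). *ILV3* and *LEU1* hold most of the client reads and so set most of that sum.

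**Figure D1:**
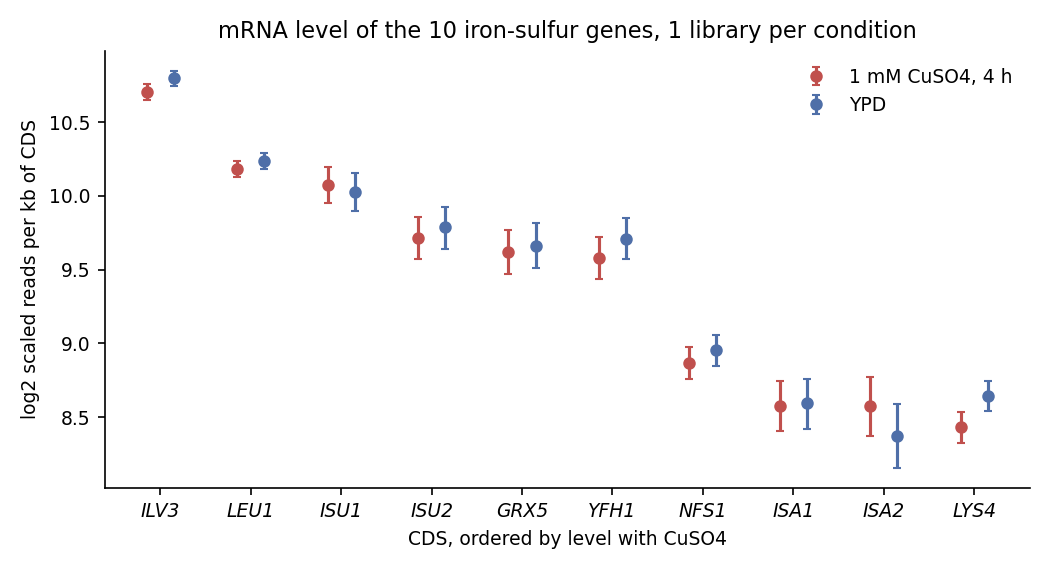
mRNA level of each gene in log2 scaled reads per kb of CDS (y axis), in the order of the CuSO4 library, for 1 CuSO4 and 1 YPD library, with 95% counting intervals as bars. *ILV3* is the highest gene in both libraries (10.70 with CuSO4 and 10.80 in YPD), and the pairs of points lie close together against the spread between genes.

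The order of the genes by level was nearly the same in both libraries. With CuSO4 it ran *ILV3*, *LEU1*, *ISU1*, *ISU2*, *GRX5*, *YFH1*, *NFS1*, *ISA1*, *ISA2*, *LYS4*. The neighbours that did not differ beyond counting error with CuSO4 were *LEU1* and *ISU1*, *ISU2* and *GRX5*, *GRX5* and *YFH1*, *ISA1* and *ISA2*, and *ISA2* and *LYS4*. In YPD it ran *ILV3*, *LEU1*, *ISU1*, *ISU2*, *YFH1*, *GRX5*, *NFS1*, *LYS4*, *ISA1*, *ISA2*. The neighbours that did not differ beyond it in YPD were *ISU2* and *YFH1*, *YFH1* and *GRX5*, *LYS4* and *ISA1*, and *ISA1* and *ISA2*. *LYS4* stood below *ISA1* and *ISA2* with CuSO4 and above them in YPD, but counting error did not separate it from the next gene, *ISA2* with CuSO4 and *ISA1* in YPD. The widest gap between neighbours in each library was 0.71 on the log2 scale, above *NFS1*.

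From the highest to the lowest gene the levels spanned 4.83-fold with CuSO4 and 5.36-fold in YPD. The median level of the 10 genes was 9.60 with CuSO4 and 9.69 in YPD, and the 6078 CDS had medians of 8.02 with CuSO4 and 8.01 in YPD. *ILV3* stood above 91.7% of CDS with CuSO4 and above 92.4% in YPD, and *LYS4* above 64.0% and 68.9%. Between members, *YFH1* mRNA exceeded *NFS1* mRNA per kb by 1.64 (1.44 to 1.85) with CuSO4 and 1.69 (1.49 to 1.91) in YPD. *LEU1* stood at 0.696 (0.660 to 0.733) of *ILV3* with CuSO4 and at 0.677 (0.642 to 0.713) in YPD. The proportions between these mRNAs differed little between the libraries.

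**Figure D2:**
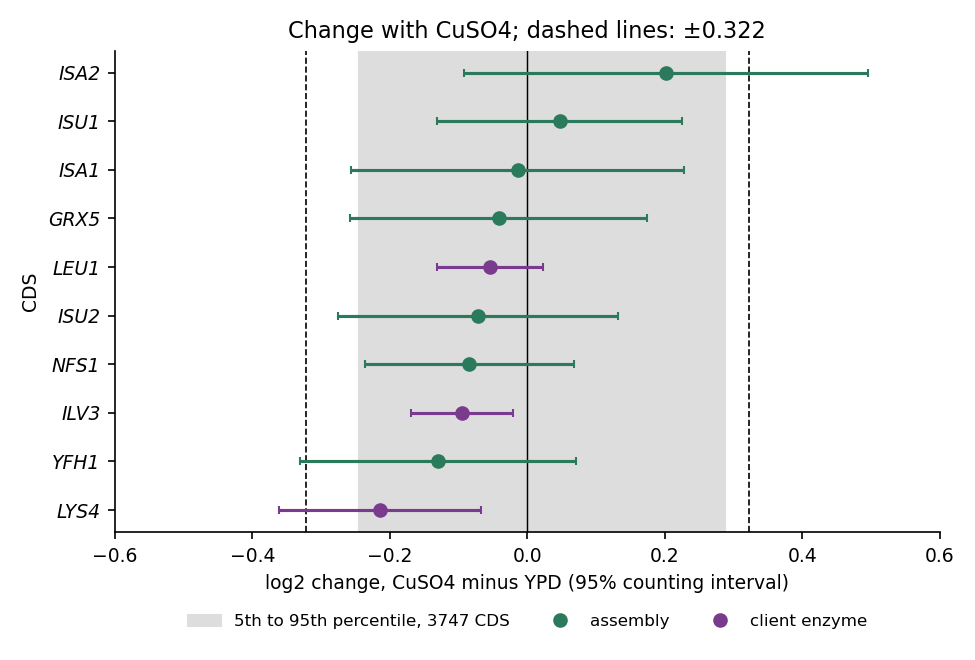
log2 change, CuSO4 minus YPD (x axis), of each gene with its 95% counting interval, in order of change. All 10 points lie between the dashed lines at -0.322 and 0.322, and the intervals of *LYS4* and *ILV3* lie below 0. The grey band is the 5th to 95th percentile (-0.24 to 0.29) of the 3747 CDS in the same range of reads.

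For counting error alone, the intervals also bound what the libraries can show. The spread between cultures was not measured and is not in these bounds. For 7 of the 10 genes the whole interval lay between -0.322 and 0.322, and for all 10 it lay within 1.5-fold. The lowest bound was 0.778-fold, for *LYS4*, and the highest 1.41-fold, for *ISA2*. A difference of the size seen for *CUP1* or *CTR1* is far outside these bounds.

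Of the 10 genes, 8 had a change below 0 and 2 above, and of the 6078 CDS 2846 lay below 0 and 3232 above. CDS with few reads scatter more widely, so the 10 genes were also set beside CDS of like read number. Among the 3747 CDS whose reads lay in the range of the 10 genes, 3.63% rose and 2.00% fell. Their median change was 0.0038, and 81.0% of them lay between the changes of *LYS4* and *ISA2*. In that range 7.82% of CDS had a lower change than *LYS4*, and 88.8% a lower one than *ISA2*. Small changes were thus the common case at these read numbers.

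**Figure D3:**
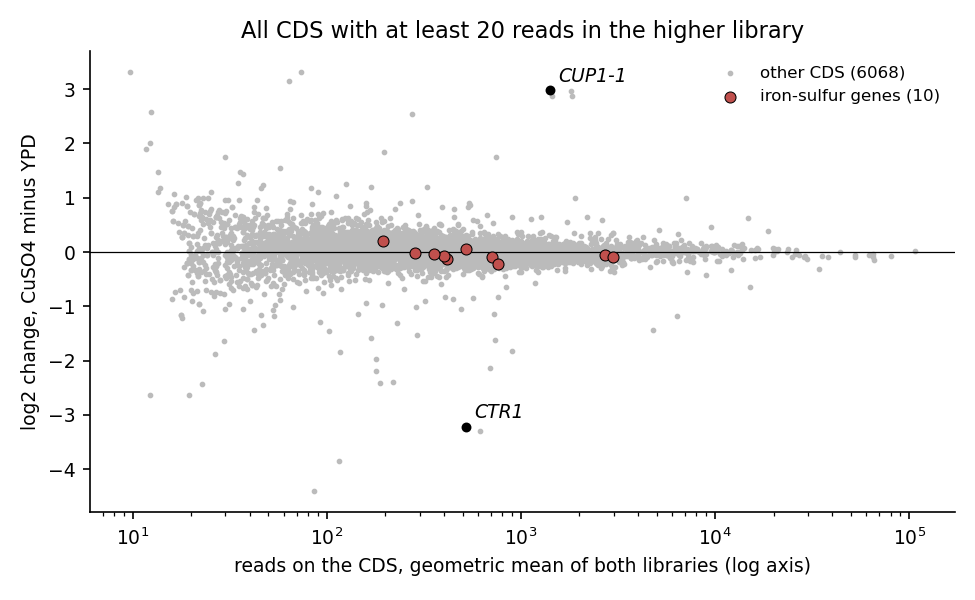
log2 change, CuSO4 minus YPD (y axis), against reads per CDS (x axis, log scale, geometric mean of both libraries) for the 6078 CDS with at least 20 reads. The 10 iron-sulfur genes (red) lie along the zero line between -0.21 and 0.20, while *CUP1-1* (2.98) and *CTR1* (-3.22) stand far from it.

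The partners of these genes in the same machinery were also near 0. The other 4 genes of the mitochondrial core, among them the ferredoxin *YAH1* and its reductase *ARH1*, had a median change of -0.06, and none rose or fell. *YAH1* had 298 reads with CuSO4 and 320 in YPD (-0.15, interval -0.39 to 0.08). *ACP1*, the mitochondrial acyl carrier protein that binds the Nfs1 complex, had the highest level of that list, at 11.15 with CuSO4 and 11.13 in YPD.

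The other 7 genes of transfer and late assembly had a median of 0.01, and none rose or fell. *ATM1*, the inner membrane exporter that links the mitochondrial pathway to the cytosol, had 422 reads with CuSO4 and 482 in YPD, a change of -0.24 (-0.43 to -0.05). It was the only one of the 7 whose interval left out 0. The nucleotide exchange factor *MGE1*, with the highest level, had a change of 0.11 (-0.01 to 0.22). The 8 genes of the cytosolic assembly machinery, which builds clusters for cytosolic and nuclear proteins such as Leu1, had a median of 0.04, and none rose or fell. Their range ran between the scaffold partners *CFD1* (-0.29, interval -0.61 to 0.01) and *NBP35* (0.11, interval -0.16 to 0.38).

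Of 12 other iron-sulfur proteins reported here, none passed the 0.322 threshold, and 3 had an interval above 0, beside 11.6% of all CDS. The mitochondrial aconitase *ACO1* had 4041 reads with CuSO4 and 3209 in YPD (0.28, interval 0.22 to 0.35). The Rieske protein *RIP1* of respiratory complex III had 373 reads with CuSO4 and 289 in YPD (0.318, interval 0.09 to 0.54), and the succinate dehydrogenase subunit *SDH2* had 324 and 258 (0.28, interval 0.04 to 0.52). These 3 genes act in respiration or the tricarboxylic acid cycle. The lowest change of these 12 was that of *ELP3*, a subunit of the Elongator complex, with 711 reads with CuSO4 and 754 in YPD (-0.13, interval -0.28 to 0.02).

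**Figure D4:**
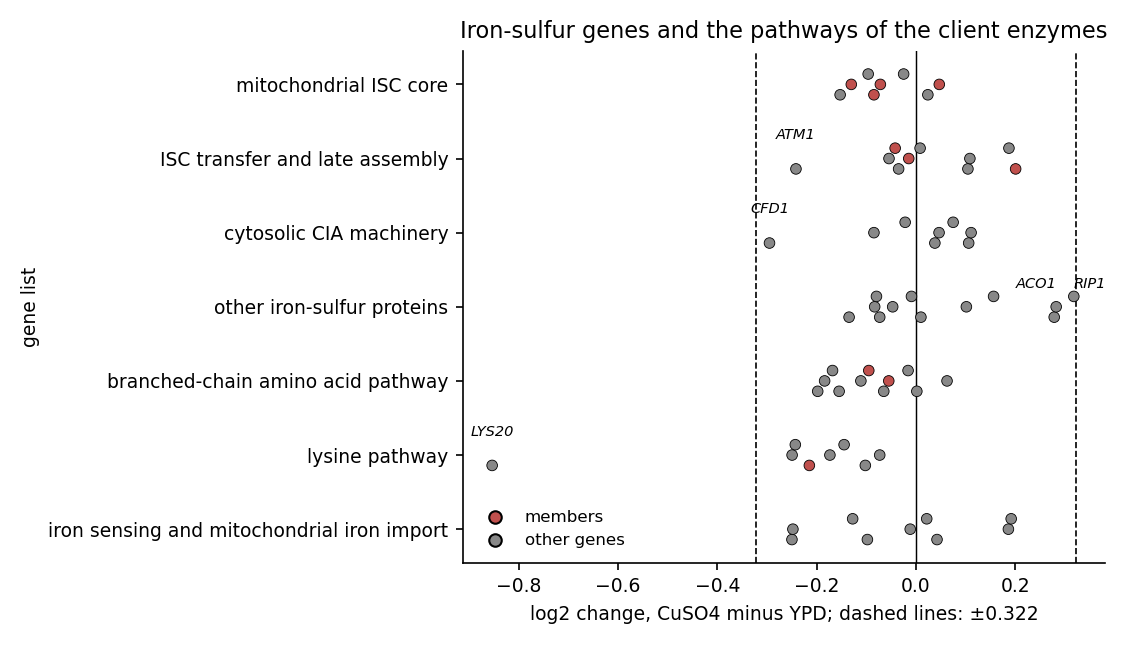
log2 change, CuSO4 minus YPD (x axis), of the genes of 7 lists (y axis), with the 10 genes described here in red and the 56 others in grey. No gene of the 4 iron-sulfur lists lies outside the dashed lines at -0.322 and 0.322, and *LYS20* (-0.85) is the 1 point beyond them.

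The client enzymes work in lysine synthesis (*LYS4*) and in branched-chain amino acid synthesis (*LEU1* and *ILV3*). The other 7 genes of the lysine pathway all had a change below 0, with a median of -0.17, and 1 of them fell past the threshold. That gene was *LYS20*, a homocitrate synthase of the first step, with 429 reads with CuSO4 and 749 in YPD (-0.85, interval -1.03 to -0.68). Of the 5697 CDS with at least 50 reads, 40 fell more. Its paralogue *LYS21*, which matches it at 95% identity over 1172 bp so that reads may be shared out wrongly between them, had 1328 reads with CuSO4 and 1525 in YPD (-0.25, interval -0.36 to -0.14). Summed, the pair had 1757 reads with CuSO4 and 2274 in YPD, a log2 change of -0.42 (-0.51 to -0.33). The size of the fall of *LYS20* alone is therefore uncertain.

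Intervals below 0, which 10.1% of all CDS had, were found for 4 of those 7 lysine genes, *LYS20*, *LYS21*, *LYS2* (-0.17) and the pathway activator *LYS14* (-0.24). *LYS12*, with the highest level of the list, had 1556 reads with CuSO4 and 1581 in YPD (-0.07, interval -0.17 to 0.03). *LYS4* at -0.21 lay among these values. The 10.1% is not matched to the read numbers of these genes.

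The other 9 genes of the branched-chain pathway had a median of -0.11, and none rose or fell past the threshold. Intervals lay below 0 for 4 of them, beside the same 10.1% of all CDS: the transaminase *BAT1* (2324 reads with CuSO4 and 2575 in YPD, -0.20), the reductoisomerase *ILV5* (7081 and 7685, -0.17), and the acetolactate synthase genes *ILV2* (-0.15) and *ILV6* (-0.11). *LEU4*, a synthase of the first leucine step, had the highest change of the list (0.06, interval -0.04 to 0.16), and the activator *LEU3* had the lowest level. *ILV3* and *LEU1*, at -0.09 and -0.05, lay inside this range. The 4 genes with intervals below 0 had many reads and so narrow intervals, and the 10.1% is not matched for read number.

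Genes that sense iron or bring it to mitochondria, 9 in all, had a median of -0.01, and none rose or fell past the threshold. The iron regulator *AFT1*, whose activity is known to be held down by mitochondrial cluster synthesis, had 510 reads with CuSO4 and 585 in YPD (-0.25, interval -0.42 to -0.07). The mitochondrial iron carrier *MRS3* had 249 and 286 (-0.25, interval -0.50 to 0.00054). *GRX4*, a glutaredoxin of the complex that signals cluster status to Aft1, had 285 and 241 (0.19, interval -0.06 to 0.45). Over the 56 other genes of the 7 lists, 0 rose and 1 fell, beside 7.80% and 4.43% of all CDS. All 56 had at least 106 reads in each library, and of CDS with at least 100 reads 5.32% rose and 2.46% fell. Of the intervals of the 56 genes, 3 lay above 0 and 10 below, beside 11.6% and 10.1% of all CDS. The lists share a culture and a library with the 10 genes, so they do not add replication.

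The upstream sequences of the 10 genes differed in the known motifs they carry. The 500 bp before each CDS start were searched on both strands in R64 for the letters of 4 motifs, none of which contains another, and 6664 CDS have the full window. Leu3, which activates branched-chain genes when it binds the leucine precursor isopropylmalate, recognises CCGG, any 2 bases and CCGG. These letters were found upstream of *LEU1*, 217 bp before its start, and of 0.255% of all CDS (17 of 6664). Of the 11 genes of the branched-chain pathway, 4 held them (*LEU1*, *ILV2*, *ILV5* and *BAT1*). Of the 8 cytosolic assembly genes 1 held them (*DRE2*), and no gene of the remaining lists did. Windows of 60 bp around 3 of the matches are shown on the coding strand, with the motif in capitals, because *LEU1* shares it with the pathway genes named above.
LEU1: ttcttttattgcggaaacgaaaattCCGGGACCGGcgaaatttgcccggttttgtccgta
ILV2: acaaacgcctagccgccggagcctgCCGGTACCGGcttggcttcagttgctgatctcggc
BAT1: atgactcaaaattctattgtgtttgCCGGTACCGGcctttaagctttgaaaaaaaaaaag
They lie at chrVII:478835-478894 on the minus strand, chrXIII:483591-483650 on the plus strand and chrVIII:517360-517419 on the plus strand.

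Aft1, the iron-responsive activator, recognises a core of GCACCC. The core was found upstream of 3 of the 10 genes, *ISU1*, *NFS1* and *YFH1*, and of 7.65% of all CDS. Their changes with CuSO4 were 0.05, -0.08 and -0.13. Among the other genes of the 7 lists, the core was found upstream of 3 of the 8 cytosolic assembly genes (*CFD1*, *NAR1* and *NBP35*), of *ACO1*, and of *FRA1* and *MRS4* in the iron list. The windows show the core in capitals, on the coding strand of each gene, where *YFH1* carries it in reverse complement.
ISU1: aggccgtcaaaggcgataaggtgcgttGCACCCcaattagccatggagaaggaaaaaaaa
NFS1: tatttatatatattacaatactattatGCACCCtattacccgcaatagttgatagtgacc
YFH1: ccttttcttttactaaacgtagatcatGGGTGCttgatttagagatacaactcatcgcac
They lie at chrXVI:297275-297334 on the plus strand, chrIII:94457-94516 on the minus strand and chrIV:245630-245689 on the plus strand.

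The Gcn4 motif TGACTC, of the general amino acid control, was found upstream of 4 of the 10 genes (*ILV3*, *LEU1*, *ISU1* and *ISU2*) and of 13% of all CDS. Of the 11 branched-chain genes, 9 held it, and of the 8 mitochondrial core genes 5. It was also held by 4 of the 8 lysine genes, 4 of the 9 genes of the iron list and 4 of the 12 other iron-sulfur proteins. Of the 8 cytosolic assembly genes 2 held it, and of the 10 genes of transfer and late assembly 0. The letters TCCNNNGGA of the lysine activator Lys14 were found upstream of 6.06% of all CDS, of *LEU9* in the branched-chain list and of *AFT1* in the iron list. They were found for 5 of the 8 lysine genes, but not in this window of *LYS4*. No match of the 4 motifs was found in the windows of *GRX5*, *ISA1* and *ISA2* either. A match is a description of letters and not evidence of binding.

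**Figure D5:**
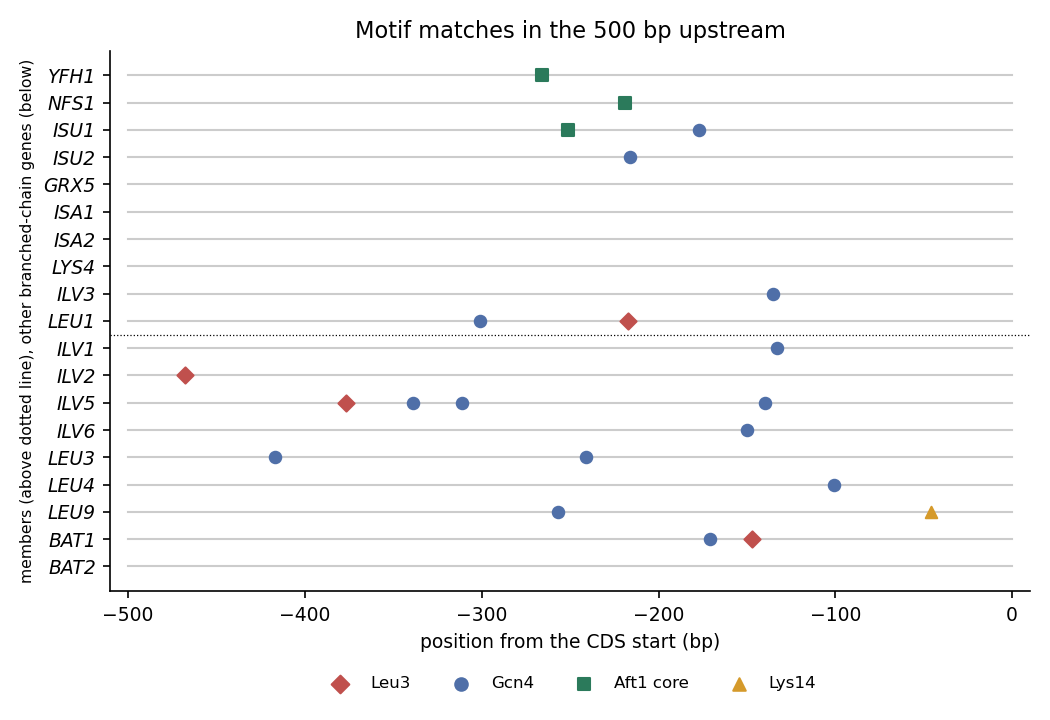
Distance of each motif match from the CDS start (x axis, bp) in the 500 bp upstream of the 10 genes (above the dotted line) and of the other 9 branched-chain genes (below it). Leu3 matches (diamonds) lie upstream of *LEU1*, *ILV2*, *ILV5* and *BAT1*, and the Aft1 core (squares) upstream of *YFH1*, *NFS1* and *ISU1*.

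No γH2A peak lay close to these genes. The deposited list holds 240 peaks of at least 2-fold enrichment over control. The methods describe peaks of unstressed YPD cells, so nothing is said here of peaks with CuSO4. A peak overlapped the 1000 bp upstream of 0 of the 10 CDS and of 6.64% of all 6697 CDS. The nearest summit to a CDS start was 6.74 kb away for *ISA1* (2.87-fold enrichment, upstream) and 7.01 kb away for *ISU1* (2.15-fold, downstream). It was 43.3 kb away for *GRX5*, 43.1 kb away for *LEU1* and between 10.1 and 26.4 kb away for the other 6 genes. The 10 genes are spread over 7 chromosomes.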

How the data were processed

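mRNA libraries (1 with 1 mM CuSO4 for 4 hours, 1 in YPD) were made from 500 ng total RNA with poly(A) selection and a directional kit. The authors mapped reads to R64 with HISAT2 2.0.5, counted them per CDS in SeqMonk and deposited log2 values, normalised for CDS length and scaled to the larger library (factor 1 with CuSO4 and 1.04 in YPD), with a floor of 0.9 reads for CDS without reads. A later step of the methods, which sets each median to 9, does not show in the deposited values (medians 7.84 with CuSO4 and 7.82 in YPD). Reads were recovered from the deposited log2 values, CDS length and floor, and were whole within 0.02 reads for 99.9% of CDS in each library. Reads without molecular identifiers are not independent molecules. The authors mapped γH2A reads with Bowtie 2 2.2.5 and called peaks with MACS2, keeping those of at least 2-fold enrichment. The deposited peak list gives the pileup signal, the fold enrichment ratio and the p-value and q-value as −log10. Positions and fold enrichment were used here, and the labels name the list for the ChIP and input samples alike.

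The log2 change was taken as CuSO4 minus YPD with a 95% Clopper-Pearson interval on the reads. The difference between 2 log2 ratios has an interval from the normal approximation to the read counts. A CDS was called at a log2 change of 0.322 or more in size where its higher library held 20 reads or more. Genes named are the 10 members, overlapping CDS, checks of treatment and strain, and, of each of 7 lists of related genes, those with the highest and lowest change (at least 50 reads), those past 1.5-fold and those with the highest and lowest level. Genes whose interval left out 0 were named after their values were seen. Members and lists were chosen with earlier results of these data known. Of 6697 CDS, 6014 are in RefSeq (R64), with all 10 members at the same position, and sequences and motif searches are from that copy. 1 gene of the list of other iron-sulfur proteins was left out and is not reported here. No sample columns were left unmatched. Intervals were tested only on simulated reads that carry counting error alone. That test cannot cover the spread between cultures or repeated reads of 1 molecule. Python 3.11.15, numpy 2.4.6, pandas 2.3.3, scipy 1.17.1, matplotlib 3.10.9 and BLAST 2.17.0 (blastn, expectation value 1e-05) were used.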

Additional observations from a re-analysis of the deposited data

How the results depend on the processing

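The median change of the 10 genes lay between -0.09 and -0.06 over other scalings, 5 added reads and lists without *ISU1* and *ISU2*. All 30 alternatives for single genes of the 10 moved the change by less than its counting interval and kept calls as they were. At a threshold of 1.1-fold, 1 of the 10 genes was higher (*ISA2*) and 1 lower (*LYS4*), and by counting interval alone 2 were lower and 0 higher. Centring each library on its median shifted all changes by -0.02. Centring took the median of the transfer and late assembly list to -0.01 (0.01 as deposited). The median of the other iron-sulfur proteins went to -0.02 (0.0007 as deposited). The shift (-0.0230) exceeded in size the upper interval bounds of *LEU1* (0.0227), *ELP3* (0.0153), *CFD1* (0.0144), *FRA1* (0.0015) and *MRS3* (0.00054). Their intervals would thus also lie below 0 under this scaling, where shares over all CDS were not recomputed. Among CDS with at least 100 reads, 5.32% were higher and 2.46% lower by 0.322 or more on the log2 scale. Without division by CDS length, *LYS4* ranked 3rd and not 10th, *NFS1* 4th and not 7th, *ISU1* 5th and not 3rd, *ISU2* 7th and not 4th, and *GRX5* 8th and not 5th with CuSO4. The count of upstream γH2A peaks stayed 0 in windows of 500 and 2000 bp, by summit, and for peaks of at least 3-fold. The sum of *LYS20* and *LYS21* (-0.42, against -0.85 for *LYS20*) and the set of CDS in the range of reads of the 10 genes were chosen after seeing the data. No paired analysis was possible because the RNA libraries have no replicates, and no replicate could be left out for the same reason.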
